A study of Drosophila melanogaster with 2 samples.

Results

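The 91 protein-coding genes described here carry the symbols of cytosolic ribosomal protein genes of Drosophila melanogaster. They were chosen by symbol alone, as RpL or RpS followed by a digit together with RpLP0, RpLP1 and RpLP2, from 13945 protein-coding genes on the 6 nuclear chromosome arms of the genome build dm6. By symbol, 53 of them were counted with the large subunit and 38 with the small subunit. A symbol, such as one ending in -like, does not show that the product is part of the ribosome. RpLP0-like and sta, which encodes a further small-subunit protein, fall outside this choice and were not counted among the 91.

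Chromatin immunoprecipitation with sequencing was done on intact larvae at the wandering stage of the third instar, with males and females pooled. The single group of 2 biological replicates carried a transgene for Cnc with GFP at its C terminus, and the precipitation used an antibody against GFP. Because whole animals were used, the tissue behind a peak cannot be told apart, and the measurement is of the tagged protein beside the larvae's own cnc gene. No control sample or second condition was analysed here, so the comparisons are of gene with gene, and no test was made.

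Cnc is a basic leucine zipper factor of the family that includes mammalian NRF2, and it pairs with a small Maf protein at antioxidant response elements. Ribosomal protein genes are among the most strongly transcribed genes of growing cells, and loss of a single copy of many of them gives the slow-growing Minute phenotype in flies. Their transcripts usually start within a run of pyrimidines, the TCT-type initiator, and not at the initiator of most other genes.

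The symbols were checked against that promoter feature, which the choice did not use. CTTT on the sense strand, with its C within 5 bases of the canonical start site, was found at 42 of the 91 genes (46.2%) and at 5.72% of all coding genes. The large subunit had 25 such genes (47.2%) and the small subunit 17 (44.7%). A TATAAA between 45 and 15 bases upstream was found at 1 of the 91 (1.10%), against 8.95% of all coding genes.

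The sequences below, read on the gene's own strand from the RefSeq genome of the dm6 chromosomes, are examples from Cnc-eGFP summits and start sites of these genes. The first set holds 50 bases to either side of the summits of the 3 highest ribosomal protein peaks, at RpL32 (chr3R:30046318-30046418), RpL34b (chr3R:9401388-9401488) and RpS20 (chr3R:20821934-20822034), and of RpS28b (chrX:9553893-9553993). None of them overlaps an annotated exon. At each of these summits the TSS of a neighbouring gene was nearer than that of the ribosomal protein gene. The RpS28b summit lay 680 bp upstream of its TSS and 193 bp from that of l(1)G0320. Capitals mark a match to the Ohler 7 core, which only the RpS28b window holds among the motifs searched.
RpL32: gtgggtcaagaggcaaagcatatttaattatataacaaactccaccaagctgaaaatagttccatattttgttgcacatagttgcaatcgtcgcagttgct
RpL34b: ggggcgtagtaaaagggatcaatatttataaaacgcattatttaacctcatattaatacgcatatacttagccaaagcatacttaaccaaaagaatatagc
RpS20: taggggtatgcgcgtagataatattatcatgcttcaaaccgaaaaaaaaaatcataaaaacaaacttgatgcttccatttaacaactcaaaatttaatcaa
RpS28b: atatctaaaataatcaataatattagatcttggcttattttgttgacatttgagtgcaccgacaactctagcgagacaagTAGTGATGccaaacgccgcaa

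The second set shows the DRE, the palindrome bound by the factor Dref, in capitals within 30 bases from ribosomal protein summit windows. The sites lie at RpL26 (chr3L:18898850-18898879), RpL36 (chrX:629459-629488), RpS12 (chr3L:13023300-13023329), RpS13 (chr2L:8364784-8364813), RpS25 (chr3R:11216328-11216357) and RpS29 (chr3R:9778046-9778075). These sites were taken after the windows had been searched.
RpL26: gatgacagtgtTATCGATActagctgaatt
RpL36: gcccgcccgccTATCGATAataaggcacga
RpS12: ctctgcgaaacTATCGATAtttgtaccaat
RpS13: tagtatacataTATCGATAgctaaatgaat
RpS25: ccaccaccaacTATCGATAggcaggcgagc
RpS29: atcgtggaaaaTATCGATActgccaccccc

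The third set contrasts 30 bases around the start site of a pair of genes with the TCT-type initiator, RpL13 (chr2L:9967315-9967344) and RpS3A (chr4:67193-67222), with a pair that lacked the letters CTTT there, RpL32 (chr3R:30046126-30046155) and RpS20 (chr3R:20822166-20822195). Capitals mark CTTT. The start site of RpS20 still lies in a run of pyrimidines, so the search for CTTT counts fewer genes than a search for any such run might. All of these genes had a reproducible promoter summit.
RpL13: agttggttgcgatttcCTTTttaattcgtt
RpS3A: gtcgtcaacgtgattcgacCTTTtccggtt
RpL32: ttcgcttctggtttccggcaaggtatgtgc
RpS20: gacaccctgtaaaacttctcttcgttttca

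A peak summit counted as a promoter summit if it lay at most 1000 bp, in either direction, from a transcription start site (TSS) annotated for the gene. The authors' reproducible list, named for a cutoff on irreproducible discovery, put such a summit at 54 of the 91 ribosomal protein genes (59.3%, exact binomial 95% interval 48.5 to 69.5%). Over all coding genes the share was 31.9%, or 4449 genes. These had 3019 distinct peaks, so a peak can count for more than 1 coding gene. The interval covers counting over genes only, and genes are not replicates. Each of the 54 genes had a peak of its own, and no peak served a pair of them.

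Reproducible summits were found at a larger share of ribosomal protein promoters than of all coding promoters, while the order of the median peak heights depended on the settings. Peak height is the authors' signal value, a score made against a control, on a scale that the labels and file headers do not state. The highest promoter peak of the 54 genes had a median pooled signal value of 406 (range 207 to 2445), against 446 over all coding genes with one. The order turned with a distance limit of 2000 bp (473 against 463) and in the whole pooled list (301 against 246). In the reproducible list as a whole their median rank was 2568, against 2214 for all coding genes with a promoter summit.

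The large and the small subunit had close shares with overlapping intervals. A reproducible promoter summit was found at 31 of 53 large-subunit genes (58.5%, interval 44.1 to 71.9%) and 23 of 38 small-subunit genes (60.5%, interval 43.4 to 76.0%). The median pooled signal values were 409 and 402. In the stalk of the large subunit, which recruits the elongation factors, RpLP0 had a pooled signal value of 287 and RpLP2 of 308, and RpLP1 had no reproducible promoter summit.

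Genes with more annotated start sites offer more places for a summit. Among ribosomal protein genes with 1 TSS, 24 of 47 (51.1%) had a promoter summit, against 25.9% of all coding genes with 1 TSS. With 2 TSSs the count was 17 of 29 (58.6%, against 42.8%), and with 3 or more it was 13 of 15 (86.7%, against 61.3%). The share of ribosomal protein genes was above that of all coding genes in each of these classes.

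RpL32, a large-subunit gene used widely as a reference in expression assays, had the highest peak (chr3R:30046116-30046545). Its pooled signal value was 2445, with 1429 in replicate 1 and 1054 in replicate 2, and its rank in the reproducible list was 79. RpL34b (chr3R:9401219-9401568) followed with 1665 pooled, 989 in replicate 1 and 703 in replicate 2. RpS20 (chr3R:20821847-20822174), of the small subunit's head, had 1436 pooled, 839 in replicate 1 and 604 in replicate 2. These 3 genes kept the same order in both replicate lists.

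RpS29 (chr3R:9777861-9778224), whose summit lay 1 bp inside the transcript, had 879 pooled, 508 in replicate 1 and 359 in replicate 2. RpL28 (chr3L:3223031-3223344) had 849 pooled, 423 in replicate 1 and 410 in replicate 2. By rank in their own lists, RpS29 was 701 in replicate 1 and 906 in replicate 2, and RpL28 was 976 and 695.

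RpS27, which encodes a zinc-finger protein of the small subunit, had 795 pooled, 357 in replicate 1 and 337 in replicate 2. RpL26, whose product lies by the exit of the peptide tunnel, had 773 pooled, 383 in replicate 1 and 399 in replicate 2. RpL23A, of the same region of the ribosome, had 772 pooled, 324 in replicate 1 and 399 in replicate 2. RpL26 ranked 1124 in replicate 1's list and 730 in replicate 2's, and RpL23A ranked 1464 and 731.

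RpS28b had 755 pooled, 497 in replicate 1 and 294 in replicate 2. RpL34a had 744 pooled, 365 in replicate 1 and 339 in replicate 2. RpL14 had 743 pooled, 422 in replicate 1 and 321 in replicate 2. The next gene below the 12 highest was RpL41, with 700 pooled.

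The 6 lowest peaks lay close to the lowest signal value of the reproducible list, 206. RpS19a had 234 pooled, 54.8 in replicate 1 and 136 in replicate 2. RpS13 had 231 pooled, 135 in replicate 1 and 96.6 in replicate 2. RpL10Ab, the protein of the L1 stalk, had 227 pooled, 90.5 in replicate 1 and 118 in replicate 2. These peaks also had lower −log10 q values in the pooled call, 2.98, 2.92 and 2.76, against 3.86 at RpL32.

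RpL15 had 221 pooled, 77.8 in replicate 1 and 169 in replicate 2. RpS30, made as a fusion with a ubiquitin-like protein, had 208 pooled, 107 in replicate 1 and 81.7 in replicate 2. RpS24 had 207 pooled, 114 in replicate 1 and 130 in replicate 2. The replicates therefore did not rank these lowest genes in the same order.

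Of the 54 peaks, 54 overlapped a peak of replicate 1's list and 53 one of replicate 2's list, with at least 1 bp shared. The exception was RpL41, which encodes a very short peptide. It had 700 pooled and 466 in replicate 1, and no overlapping peak in replicate 2's list. The file lists name the replicate lists as a source of the reproducible list, but its 6153 peaks were exactly the 6153 highest of the pooled list by signal value. Being in it is therefore being above a pooled signal value of 206, and it does not require a peak in each replicate list. The 6153 highest peaks of each replicate list were also taken, a number set by the length of the reproducible list. Among them, 48 of the 54 had an overlapping peak in replicate 1, 50 in replicate 2 and 44 in both. The same counts over all coding genes are not given here.

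Across the 53 peaks in both lists, the replicate signal values had a Spearman correlation of 0.718 and a Pearson correlation of 0.787 on the log2 scale. Over 2937 promoter peaks of all coding genes the values were 0.802 and 0.826. Peaks share libraries and control and are not replicates.

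**Figure D1:**
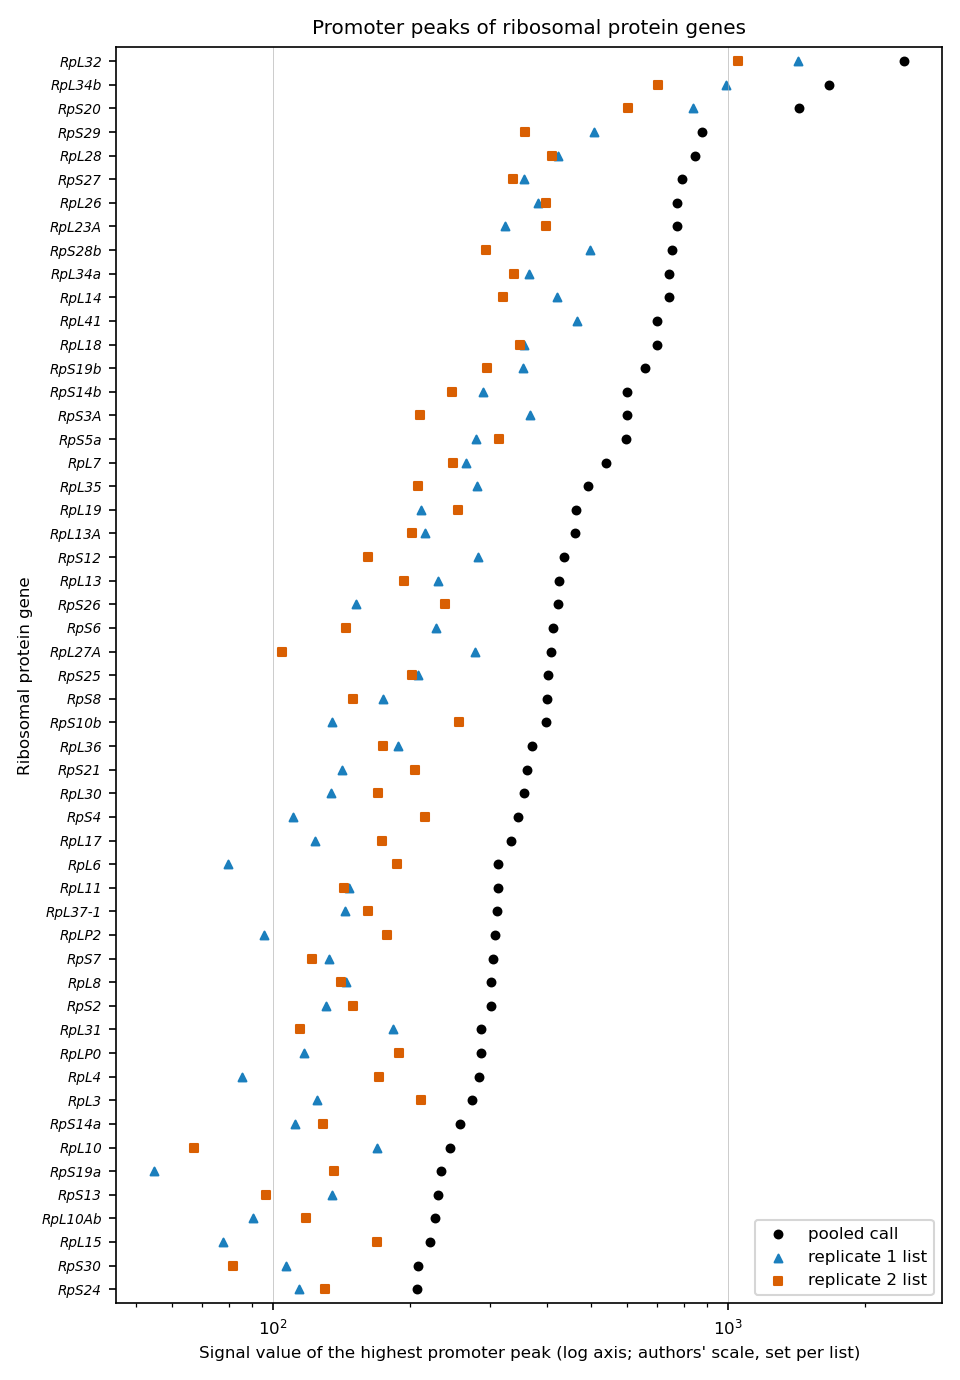
Signal value of the highest reproducible promoter peak of 53 of the 54 ribosomal protein genes (log axis), in the pooled call (circles), in replicate 1's list (triangles) and in replicate 2's list (squares). Pooled values run from 207 at RpS24 to 2445 at RpL32. Each list has its own scale, and RpL41 has no point for replicate 2.

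Paralogs are duplicated ribosomal protein genes, some of them known for expression in the germ line, such as RpL22-like in the testis and RpS5b in the ovary. Of 16 genes ending in a or b, 10 (62.5%, interval 35.4 to 84.8%) had a reproducible promoter summit, against 31.9% of all coding genes. They were 4 of 8 ending in a and 6 of 8 ending in b. Their median pooled signal value was 599. None of the 4 genes ending in -like (RpL7-like, RpL22-like, RpL24-like and RpS28-like) had one, with an interval up to 60.2%. Of the 22 genes whose symbols mark them as duplicates, with RpL37-1 and RpL37-2 included, 11 had one, against 43 of the other 69 (62.3%). RpL7, RpL22 and RpL24, the namesakes of -like genes, stand among the 69, so these are not all single genes.

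In 3 pairs both paralogs had a promoter peak, and within each replicate's list the b copy was the higher. With each summit given to the nearest coding TSS only, none of these pairs kept both copies: RpL34b, RpS14a, RpS19a and RpS19b were lost. RpL34b stood at 989 and 703 in replicates 1 and 2, where RpL34a stood at 365 and 339. RpS14b had 601 pooled, 289 in replicate 1 and 247 in replicate 2, and its tandem neighbour RpS14a had 258 pooled, 112 in replicate 1 and 129 in replicate 2. RpS19b had 656 pooled, 355 in replicate 1 and 295 in replicate 2, above the values of RpS19a. The RpS19b summit lay 894 bp upstream of its TSS and 512 bp from that of CG5854, the RpS19a summit 207 bp from that of Rok and the RpS14a summit 105 bp from that of Dhdds. With a distance limit of 250 bp, RpS14a, RpS19a and RpS19b were lost.

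In 4 further pairs, 1 copy had a promoter peak. RpS5a had 597 pooled, 279 in replicate 1 and 314 in replicate 2, and RpS5b had no reproducible promoter summit. RpS10b had 398 pooled, 135 in replicate 1 and 256 in replicate 2, and RpS10a had none in any of the lists. RpS28b and RpL10Ab had the peaks given above, and RpS28a and RpL10Aa had none in the reproducible or the pooled list. The copy with the peak carried the letter a at 1 of these 4 pairs and the letter b at the other 3.

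RpS15Aa and RpS15Ab both lacked a reproducible promoter summit. RpL37-1 had 311 pooled, 144 in replicate 1 and 162 in replicate 2, and RpL37-2 had none.

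Summits sat upstream of the start sites. Their median position relative to the gene's nearest TSS was −154 bp, with an interquartile range from −212 to −59 bp, against a median of −142 bp over all coding genes. Of the 54 summits, 47 (87.0%) were upstream, against 81.3%. The band from 250 to 150 bp upstream held 20 of them (37.0%), against 24.9% of all coding genes. Over all ribosomal protein genes with a promoter summit in the whole lists, that share was 22.2% in replicate 1, 25.6% in replicate 2 and 28.4% in the pooled list. By the gene's own annotation, 45 summits were upstream of the gene, 6 in the 5′ UTR, 3 in an intron and 0 in a coding exon. The subunits had close medians, −160 bp for the large and −152 bp for the small.

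**Figure D2:**
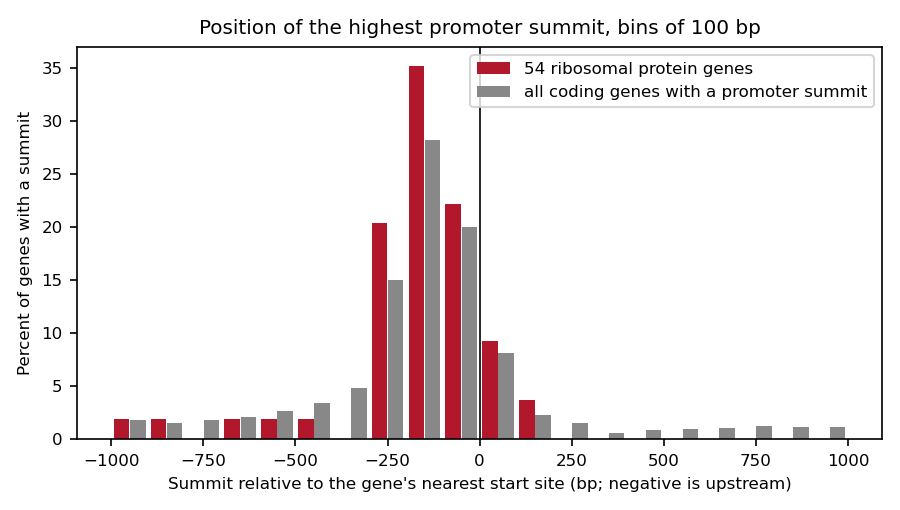
Share of genes by the position of the highest promoter summit relative to the nearest TSS of the gene, in bins of 100 bp, for the 54 ribosomal protein genes and for all coding genes with a promoter summit. Both groups gather upstream, with medians of −154 and −142 bp.

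The distance limit decided a few genes. Just inside it, RpL8, whose product lies near the peptidyl transferase centre, had its summit at −920 bp with a pooled signal value of 301 (145 in replicate 1 and 141 in replicate 2). That summit was 4 bp from a TSS of msn, which encodes a kinase upstream of JNK. Outside the reproducible list, RpL8 had a pooled-list summit 141 bp from its TSS (signal value 182). Replicate 1's list had one at −140 bp (211). RpS19b stood at −894 bp. The highest peak of RpS28b was at −680 bp and that of RpL35 at −523 bp, and both genes had a second, nearer peak at −181 and 61 bp. Just outside, the nearest reproducible summits lay 1336 bp from RpL39, with a signal value of 213, and 1430 bp from RpS23, with 271. RpL35 had 492 pooled, 281 in replicate 1 and 208 in replicate 2.

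Peaks shared with a neighbouring gene were about as frequent as at other coding genes. Of the 54 summits, 35 (64.8%) were also within 1000 bp of a TSS of another coding gene, against 64.3% of all coding genes with a promoter summit. A gene on the opposite strand was among them at all 35, or 64.8% of the 54, against 59.9% of all coding genes with a promoter summit. The summit was nearest to a TSS of the ribosomal protein gene itself at 34 genes (63.0%, against 68.0%) and nearer to a neighbour's at 20. A summit between a pair of start sites cannot be given to either gene. Over all coding genes such a summit can be counted once for each gene.

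The highest peaks were more often those nearer to the neighbour. At RpL32 the summit was 207 bp from its own TSS and 102 bp from that of CG7943. At RpL34b it was 57 bp from CG8132 and at RpS20 136 bp from CG17271. At RpL28 it was 187 bp from eIF1, which acts in start codon selection, and at RpS27 45 bp from Nup37, a nuclear pore component. At RpL14 it was 9 bp from Nelf-E, a subunit of the complex that holds paused RNA polymerase.

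A neighbour's TSS was nearer at 13 of the 20 highest ribosomal protein peaks and at 7 of the other 34. The 20 peaks nearer to a neighbour had a median pooled signal value of 677 (range 231 to 2445). The 15 peaks with a neighbour in reach but their own TSS nearest had a median of 372 (range 227 to 773), and the 19 with no other coding TSS within 1000 bp had 334 (range 207 to 879). The ranges overlapped.

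The same order of medians was seen in each replicate list, with 356, 184 and 135 in replicate 1 and 294, 189 and 174 in replicate 2. Over all coding genes the pooled medians were 506, 500 and 378. Those medians count genes, so a peak between a pair of start sites can enter both classes with a neighbour in reach. The values 506 and 500 are therefore drawn partly from the same peaks, whereas each of the 54 ribosomal protein peaks was counted once. These classes were set up after the peaks had been seen, and they use each gene's highest peak only. RpS28b and RpL35, counted with the neighbour's TSS nearest, each also had a lower reproducible peak nearest to their own TSS. RpS29, RpL26 and RpL23A were the highest peaks with their own TSS nearest.

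**Figure D3:**
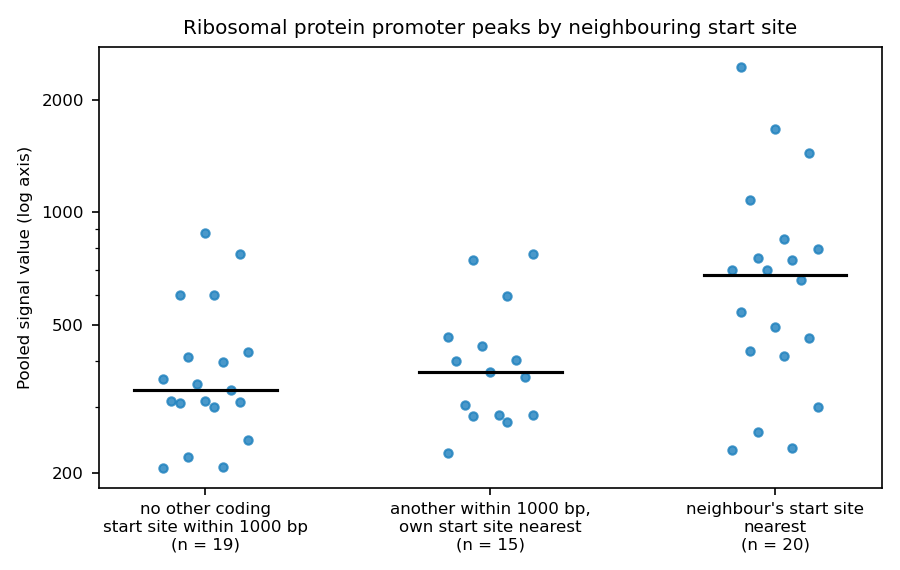
Pooled signal value (log axis) of the 54 ribosomal protein promoter peaks by the start sites around the summit. Points are genes and lines are medians: 334 with no other coding TSS within 1000 bp, 372 with another in reach but the own TSS nearest, and 677 with the neighbour's TSS nearest.

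Some of the shared peaks had a gene of the same pathway on the other side. The RpL13 summit (426 pooled, 231 in replicate 1 and 194 in replicate 2) was 139 bp from the TSS of Dref, the factor that binds the DRE. The RpS6 summit (413 pooled, 228 in replicate 1 and 145 in replicate 2) was 101 bp from the TSS of bys, a ribosome biogenesis gene. RpS6 itself is the small-subunit protein phosphorylated by S6k. At both genes the neighbour's TSS was the nearer.

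The chromosome arms differed in how many of their ribosomal protein genes had a summit. On 3L it was 12 of 14 (85.7%, interval 57.2 to 98.2%), on X 11 of 14 (78.6%, interval 49.2 to 95.3%) and on 3R 15 of 23 (65.2%, interval 42.7 to 83.6%). On 2L it was 8 of 19 (42.1%, interval 20.3 to 66.5%) and on 2R 7 of 20 (35.0%, interval 15.4 to 59.2%). The single gene on chromosome 4, RpS3A, had a peak of 599 pooled, 367 in replicate 1 and 211 in replicate 2.

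All coding genes ranged only from 28.2% on X to 35.5% on 3R among these large arms. On 2L and 2R together, 15 of 39 ribosomal protein genes (38.5%) had a summit, against 30.7% of all coding genes there. On 3L, 3R and X together, 38 of 51 (74.5%) had one, against 32.6%. With the highest peaks of replicate 2 alone the counts were 19 of 39 and 38 of 51. With those of replicate 1 alone they were 20 of 39 and 35 of 51. In both of these settings the shares of all coding genes were at most 33.0%. In the whole pooled list the counts were 33 of 39 (84.6%, against 55.5%) and 47 of 51 (92.2%, against 56.0%). With each summit given to the nearest coding TSS only, they were 10 of 39 (25.6%, against 22.4%) and 25 of 51 (49.0%, against 23.1%). In that setting the share on 2L and 2R was close to that of all coding genes. The grouping of arms was made after the counts had been seen.

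**Figure D4:**
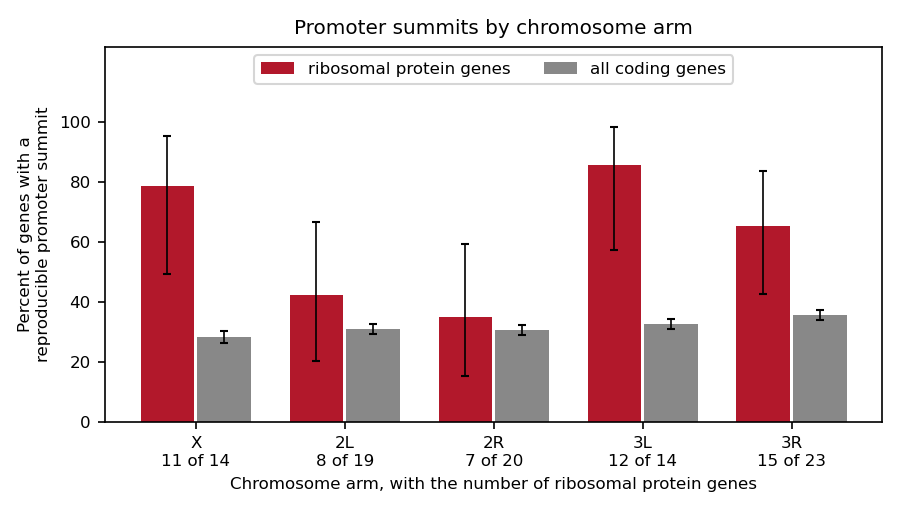
Percent of genes with a reproducible promoter summit on each large chromosome arm, for ribosomal protein genes and for all coding genes, with exact binomial 95% intervals that cover counting over genes only. Ribosomal protein genes run from 35.0% on 2R to 85.7% on 3L, and all coding genes from 28.2% to 35.5%.

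The 37 genes without a reproducible promoter summit were, in the large subunit, RpL5, RpL7A, RpL7-like, RpL9, RpL10Aa, RpL12, RpL21, RpL22, RpL22-like, RpL23, RpL24, RpL24-like, RpL27, RpL29, RpL35A, RpL36A, RpL37-2, RpL37A, RpL38, RpL39, RpL40 and RpLP1. In the small subunit they included RpS3, RpS5b, RpS9, RpS10a, RpS15, RpS15Aa, RpS15Ab, RpS16, RpS18, RpS23, RpS27A, RpS28a and RpS28-like. Both genes that encode fusions with ubiquitin, RpL40 and RpS27A, were among them.

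Most of these genes had a lower peak that the reproducible list did not hold. The whole pooled list had a promoter summit at 27 of the 37. Of all 13945 coding genes it had one at 7817, among them the 4449 with a reproducible one. At the 27 genes the signal values ran from 63.2 to 204 with a median of 153, at a median rank of 9064. RpS15 had the highest, 204 pooled with 74.3 in replicate 1 and 158 in replicate 2, and RpL9 the lowest, 63.2 pooled. All lie under 206, the lowest value of the reproducible list, as they must since that list is the top of the pooled list.

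The nearest reproducible summit lay between 1336 bp (RpL39) and 296797 bp (RpL5) from their start sites, with a median of 6884 bp (RpL7-like). RpL5, which binds the 5S RNA together with RpL11, had a pooled-list summit 31 bp upstream of its TSS with a signal value of 161 (65.4 in replicate 1 and 51.8 in replicate 2). RpL11 had 312 pooled, 147 in replicate 1 and 143 in replicate 2.

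In the whole pooled list, 81 of the 91 genes (89.0%) had a promoter summit, against 56.1% of all coding genes. The whole list of replicate 1 had 81 (89.0%, against 57.4%) and that of replicate 2 had 82 (90.1%, against 56.7%). Both replicate lists had one at 77 genes and neither at 5, which were RpL22-like, RpL23, RpL24-like, RpL37-2 and RpS10a. RpL23 is the only one of these 5 whose symbol does not mark it as a duplicate. The counts for both and for neither list are not given over all coding genes. These lists were each cut at 30000 peaks, so their length is set by the processing.

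Motifs were searched on both strands in windows of 50 bp to either side of summits and of canonical start sites. They were Cnc-Maf (TGACNNNGC), AP-1 (TGANTCA), the DRE (TATCGATA) and its core (ATCGAT), which lies inside the DRE, GAGA (GAGAG), the M1BP core (GGTCACAC), the Ohler 7 core (CATCNCTA) and the E-box (CACGTG). A match describes the letters in the window and is not a binding site. The comparison sets were the windows of 3019 summits at coding promoters and of 13945 start sites.

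None of the 54 ribosomal protein summit windows held the Cnc-Maf motif, against 2.45% of all promoter summit windows. A count of 0 in 54 allows a share of up to 5.56%, a limit made from 3 counts and not from the exact interval used for other shares. AP-1 and the E-box were likewise found in 0 of 54, against 2.29% and 0.927%. In windows of 50 bp these shares over all promoters lie under the limit, so that no difference was detectable with this number of windows. In windows of 100 bp to either side the Cnc-Maf motif was again in 0 of 54, against 5.63% of all promoter summit windows. That share is so close to the limit that no difference is read from it either.

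The DRE was found in 9 of the 54 summit windows (16.7%), against 4.44%, among them RpL19, RpL26, RpL36, RpS10b, RpS12, RpS13, RpS25 and RpS29. The DRE core was found in 15 (27.8%), against 11.2%. GAGA was in 2 (3.70%, against 8.78%), the M1BP core in 1 (1.85%, against 1.62%) and the Ohler 7 core in 2 (3.70%, against 3.84%). Base composition was close, with 34.9% G and C in ribosomal protein summit windows and 33.5% in all. The genes with a DRE included both RpS13, among the 6 lowest peaks, and RpS29 and RpL26, among the 12 highest.

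At the start sites themselves the DRE was found at 11 of the 91 genes (12.1%, against 5.29% of all start sites), the M1BP core at 10 of the 91 (against 5.41%) and the E-box at 9 (9.89%, against 2.03%). Within 25 bp of the start site the DRE core was at 4.40%, below the 6.93% of all start sites. The Cnc-Maf motif was found at 4 (4.40%, against 3.84%), which were RpL22-like, RpLP1, RpS14a and RpS15. Only RpS14a among them had a reproducible promoter summit. The E-box was at 7 of the 54 start sites with a summit (13.0%) and 2 of the 37 without (5.41%). In windows of 100 bp to either side these shares were 16.7% and 13.5%. GAGA was also higher with a summit (11.1% and 5.41%). The other order was seen for the M1BP core (7.41% and 16.2%) and Cnc-Maf (1.85% and 8.11%), in every window tried. The DRE (11.1% and 13.5%) and the Ohler 7 core (3.70% and 8.11%) also had it in windows of 50 bp. For the DRE the order turned in windows of 100 bp (33.3% and 21.6%) and 25 bp (5.56% and 2.70%). In windows of 25 bp GAGA (1.85% and 5.41%) and the Ohler 7 core (3.70% and 2.70%) turned as well.

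The TCT-type initiator was about as frequent at genes with a summit as at those without. It was found at 24 of the 54 with one (44.4%) and at 18 of the 37 without (48.6%).

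**Figure D5:**
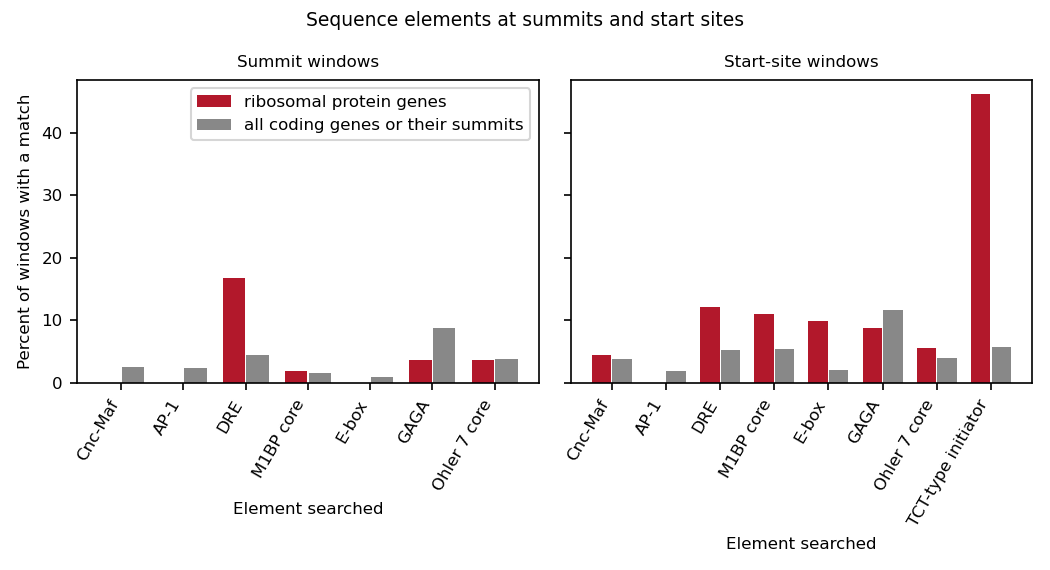
Percent of windows of 50 bp either side that hold each element, at summits and at canonical start sites, for ribosomal protein genes and for all coding genes. The TCT-type initiator was searched on the sense strand at the start site only. In summit windows the DRE stands at 16.7% against 4.44%, and at start sites the TCT-type initiator at 46.2% against 5.72%.

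The other genes of the pathway were taken from lists of regulators, ribosome biogenesis and translation elongation. Of 16 regulators of growth and ribosomal protein gene transcription, 15 (93.8%) had a reproducible promoter summit, against 31.9% of all coding genes. The highest were REPTOR (1483 pooled, 790 in replicate 1 and 718 in replicate 2), a transcription factor held back by TOR signalling, and Mnt (947 pooled, 649 and 354), a repressor that competes with Myc. BEAF-32, an insulator protein, had 679 pooled, mTor, the growth kinase, 678 and Trl, the GAGA factor, 456. Myc was the gene without one. The median over the 15 was 377, the lowest value was 229, and summits lay up to 968 bp from the nearest TSS. The highest Mnt peak lay 923 bp downstream of the nearest TSS, while another reproducible summit was 150 bp from a TSS of Mnt. The Dref peak is the one shared with RpL13. REPTOR, Trl, Mnt and BEAF-32 have 3 or 4 annotated TSSs. Over all coding genes with 3 or more, 61.3% had a promoter summit.

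Of 29 matched ribosome biogenesis genes, 17 (58.6%, against 31.9% of all coding genes) had a promoter summit, with a median of 530. The highest were eIF6 (2635 pooled, 1683 in replicate 1 and 1006 in replicate 2), which keeps the subunits apart, and Ns2 (1292 pooled, 500 and 753), a nucleolar GTPase. They were followed by l(3)72Dn with 802, Nnp-1 with 720 and Surf6 with 712. The peak at eIF6 exceeded that of every ribosomal protein gene in the pooled call.

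Of 9 translation elongation genes, 4 (44.4%, against 31.9%) had a promoter summit. They were eEF1gamma with 593 pooled, eEF5 with 472, eEF1alpha1 with 367 and Rack1, a scaffold on the small subunit, with 356. The share at ribosomal protein genes, 59.3%, was close to that of the biogenesis genes.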

How the data were processed

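The data were peak lists on dm6 for 2 biological replicates of 1 group. Per the deposited file lists, replicate lists were called on each replicate's alignments against a control, a pooled list on both together, and the reproducible list was kept by an IDR threshold. That list equals the 6153 highest peaks of the pooled list. Neither the aligner nor the caller, with their versions, nor that threshold is stated in the sources used here. Column 7 is the authors' deposited signal value, used to describe and rank peaks within a list. Across lists it was set only in correlations. Column 9 is the deposited −log10 q value. Lists on dm3 were not used. Read numbers were not used, so the depth is unknown.

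Gene models came from Ensembl release 115 and sequence from RefSeq's assembly of these chromosomes. Coordinates are 1-based. A gene's value is the highest peak with its summit within 1000 bp of a TSS, and a replicate's value is the highest overlapping peak (at least 1 bp) of its list. Python 3.11.15, numpy 2.4.6, scipy 1.17.1 and matplotlib 3.10.9 were used. Overlaps were checked with bedtools 2.31.1, and the assignment was tested on simulated data. Exact binomial (Clopper-Pearson) intervals have a level of 95% and cover counting error only. The limit for a motif found in 0 summit windows uses 3 counts instead.

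Full values are given for the 12 highest and 6 lowest genes, paralogs, and genes with a summit near the distance limit. Up to 5 genes are named per pathway list. Other genes were named after their values were seen. A few members are counted but not reported here by name. The members, lists and comparisons were chosen with earlier results of these data known. The name pno1 matched no gene. Alternatives changed the distance, the TSS set, the peak set, each replicate and the window.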

Additional observations from a re-analysis of the deposited data

How the results depend on the processing

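The share of ribosomal protein genes with a promoter summit was 1.59 to 2.16 times that of all coding genes in every setting tried (1.86 as reported). Giving each summit only to the nearest coding TSS left 36 genes (39.6%, against 22.9%), with 20 large-subunit genes (37.7%), 42.1% of small-subunit genes and 6 paralogs ending in a or b, and medians of 358 against 410. A limit of 250 bp also left 6 such paralogs. Keeping only reproducible peaks above that list's median signal value left 33 genes (36.3%, against 20.3%), 18 large (34.0%) and 15 small (39.5%), with medians of 599 and 638. The whole pooled list gave 89.0% against 56.1%, 86.8% of the large and 35 of the small (92.1%), with medians of 301 and 246. Over all coding genes the share was 24.0%, 28.4% and 36.9% at 250, 500 and 2000 bp and 29.7% with canonical TSSs, where the median position at ribosomal protein genes was −172 bp. At 2000 bp their median signal value was 473, against 463 over all coding genes. On the highest peaks of replicate 2 alone, 58 genes (63.7%, against 31.2%) had a summit. RpL10, RpL41, RpS13 and RpS30 were lost there and 8 genes gained. On those of replicate 1 alone, 56 genes (61.5%, against 32.0%) had one. RpL4, RpL6, RpL10Ab, RpL15, RpLP2 and RpS19a were lost there and 8 genes gained. Replicate values have their own scale, with medians of 188 to 198 against 213 to 244 over all coding genes. With 25 and 100 bp windows, start-site shares were 4.40% (against 2.75% of all start sites) and 28.6% (7.51%) for the DRE, and 4.40% (6.93%) and 37.4% (18.3%) for its core, which turned at 25 bp. With 25 bp they were 3.30% (5.58%) for GAGA and 2.20% (0.660%) for the E-box, and the Ohler 7 core was in 0 of the summit windows. The cause of these shifts was not tested. No paired analysis was possible because there was 1 group. The number of genes limits the intervals, and the depth is unknown.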
